A study of Homo sapiens with 8 samples.

Results

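RD-ES is a human Ewing sarcoma cell line, and the cells used here were an RD-ES/USP6 pool, not a single clone, into which the ubiquitin-specific protease and oncogene USP6 had been introduced under doxycycline control. Total RNA was sequenced from 8 samples in 4 groups of 2 replicates, and the comparison described here uses 4 of these 8 samples. They are 2 untreated samples and 2 samples given interferon alpha alone at 1000 U/mL for 24 h. No sample of either group received doxycycline, but both groups carry the inducible USP6 transgene, whose symbol stood between 8.71 and 10.2 CPM (read counts scaled to a total of 1000000 per library) in all 4 libraries. It stood at 569 and 572 CPM with doxycycline alone and at 399 and 373 CPM with doxycycline and interferon. USP6 has close relatives in the genome, so reads counted for it may come partly from them. The other 4 samples, with doxycycline for 24 h before interferon or without interferon, enter the statistical fit and serve below to ask whether the interferon response differs on that background. Whether replicates were grown as separate cultures is not in the labels, and the p-values then speak only of the variation among these samples, part of which may be technical.

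Interferon alpha is a type I interferon, an antiviral cytokine that nearly every cell can sense. It binds the receptor chains IFNAR1 and IFNAR2, whose kinases JAK1 and TYK2 phosphorylate transcription factors of the STAT family, STAT2 among them. Together with IRF9 these form a complex that enters the nucleus, binds the interferon-stimulated response element in promoters and switches on interferon-stimulated genes. Their products block viral entry, replication and release, present antigen to T cells and set the sensitivity of the cell to further signals.

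The response element is printed here because the genes that rose most can be read against it. Its core was searched for as GAAA, any 2 bases, then GAAA, on both strands, in RefSeq promoter sequences of 300 bases (250 before to 50 after each gene's start, build GRCh38.p14). The build named for the counts is hg19, so these coordinates belong to the promoter table alone. Promoters of 11368 tested genes were found in that table, 176 of them genes higher with interferon. Other higher genes, among them OAS2, MX2 and TRIM22, had no sequence there and were not searched. The 6 printed genes had the highest fold changes among those with a match and at least 10 reads in the untreated libraries. Each sequence reads 5′ to 3′ along the gene's strand, and capitals mark the matches, which read as TTTC, 2 bases, TTTC where the core lies on the other strand.
IFI27 (chr14:94110486-94110785, plus strand): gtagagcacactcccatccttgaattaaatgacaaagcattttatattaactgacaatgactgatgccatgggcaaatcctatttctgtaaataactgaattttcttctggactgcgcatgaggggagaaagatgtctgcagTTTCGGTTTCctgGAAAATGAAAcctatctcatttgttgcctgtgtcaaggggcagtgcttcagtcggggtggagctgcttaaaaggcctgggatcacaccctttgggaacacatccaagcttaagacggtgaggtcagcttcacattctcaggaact
EPSTI1 (chr13:42992192-42992491, minus strand): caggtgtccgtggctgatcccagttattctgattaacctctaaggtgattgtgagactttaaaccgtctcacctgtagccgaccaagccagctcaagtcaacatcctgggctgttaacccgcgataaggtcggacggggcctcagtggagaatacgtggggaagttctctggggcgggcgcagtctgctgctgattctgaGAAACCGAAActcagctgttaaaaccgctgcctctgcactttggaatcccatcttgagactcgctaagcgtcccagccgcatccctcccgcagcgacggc
MX1 (chr21:41420308-41420607, plus strand): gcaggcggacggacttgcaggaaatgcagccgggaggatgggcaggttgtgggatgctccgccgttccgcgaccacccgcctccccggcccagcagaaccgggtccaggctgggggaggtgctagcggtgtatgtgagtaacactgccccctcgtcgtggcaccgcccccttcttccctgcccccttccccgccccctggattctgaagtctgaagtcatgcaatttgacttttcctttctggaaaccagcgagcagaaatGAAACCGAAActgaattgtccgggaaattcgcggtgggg
IFI6 (chr1:27672143-27672442, minus strand): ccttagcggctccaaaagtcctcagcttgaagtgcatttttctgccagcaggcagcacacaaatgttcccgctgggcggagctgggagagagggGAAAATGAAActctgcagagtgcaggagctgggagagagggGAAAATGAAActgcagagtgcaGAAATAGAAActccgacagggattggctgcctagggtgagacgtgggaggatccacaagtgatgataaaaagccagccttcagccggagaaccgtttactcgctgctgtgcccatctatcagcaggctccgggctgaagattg
CXCL10 (chr4:76023448-76023747, minus strand): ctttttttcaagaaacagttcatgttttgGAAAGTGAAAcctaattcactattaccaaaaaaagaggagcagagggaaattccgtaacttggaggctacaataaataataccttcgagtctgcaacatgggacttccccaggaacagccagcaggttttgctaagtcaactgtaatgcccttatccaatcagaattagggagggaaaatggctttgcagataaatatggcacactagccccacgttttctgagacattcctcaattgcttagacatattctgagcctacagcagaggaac
IFIT1 (chr10:89392373-89392672, plus strand): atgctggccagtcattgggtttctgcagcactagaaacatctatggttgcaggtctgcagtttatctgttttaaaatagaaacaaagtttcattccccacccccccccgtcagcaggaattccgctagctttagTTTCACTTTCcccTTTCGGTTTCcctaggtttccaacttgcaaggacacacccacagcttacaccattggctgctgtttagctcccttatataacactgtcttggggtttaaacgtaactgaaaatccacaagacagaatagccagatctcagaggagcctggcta

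The promoter of IFI6 holds 3 matches, those of IFI27 and IFIT1 hold 2 each, and those of EPSTI1, MX1 and CXCL10 hold 1 each. Among all tested genes with a promoter sequence, 348 of 11368 (3.06%) held a match, as did 996 of the 27305 promoters of the whole table (3.65%). Of genes higher with interferon 59 of 176 (33.5%) held one. By size of change the share was 12 of 21 (57.1%) at 16-fold or more, 27 of 56 (48.2%) between 4- and 16-fold, 20 of 48 (41.7%) between 2- and 4-fold and 0 of 51 under 2-fold. Of the lower genes 1 of 61 (1.64%) held one, the histone gene HIST1H2BI. A second motif, the core of the gamma-activated sequence, was searched as TTC, any 3 bases, then GAA. It lay in 24 higher promoters (13.6%), in 1 lower promoter (1.64%) and in 732 promoters of all tested genes (6.44%). A promoter can hold both motifs, and 48 of the 59 with the response element core held no match to the second. These are letter matches in a fixed window, not measured binding.

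The 4 libraries held between 9983115 and 11249177 reads in the rows used, 1 transcript row per gene, so 3 reads, taken here as the floor, equal between 0.267 and 0.3 CPM. The deposited values are raw read counts, and CPM grows with transcript length. Levels of named genes are compared with each other as RPKM (CPM divided by transcript length in kilobases). Ranks by gain in CPM, cutoffs in CPM and sums over lists favour long transcripts. None of the 10 Ewing sarcoma markers was at 0, and their summed level was 2261 and 2389 CPM untreated and 2454 and 2684 CPM with interferon. Most of that sum was CCND1 (1280 and 1320 CPM untreated, 1370 and 1500 CPM with interferon). Other members were low, with CD99 at 2.8 and 2.22 against 2.7 and 3.02 CPM and NR0B1 at 6.18 and 5.42 against 7.71 and 6.8 CPM. No marker of this list was called by edgeR or DESeq2, and 1 was higher with the GC correction described below. Endothelial markers summed to at most 2.9 CPM. Leukocyte markers summed to 10.5 and 8.09 CPM untreated and 17.1 and 17.4 CPM with interferon, and 1 of the 5 tested, CD68, was called. Fibroblast markers summed to 272 and 222 CPM against 221 and 195 CPM. Of 9 tested, edgeR called 0, with 2 at an unadjusted p under 0.05, and DESeq2 called 2 lower, FAP (edgeR log2 change -1.17 ± 0.27, adjusted p 0.051; DESeq2 adjusted p 0.035) and COL3A1 (edgeR -0.81 ± 0.19, adjusted p 0.055; DESeq2 adjusted p 0.015). Libraries also differed in how counts tracked the GC content of genes. The rank correlation across genes of each library's deviation with GC content was 0.579 and 0.12 in the untreated and 0.305 and 0.035 in the interferon libraries.

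Of 14601 genes tested with edgeR's quasi-likelihood test, 310 (2.12%) passed a Benjamini-Hochberg adjusted p of 0.05. Higher with interferon were 237 genes (1.62%) and lower were 73 (0.500%), so 76.5% of calls were higher. Over all tested genes the median log2 fold change was -0.009, and 1700 of the 14601 had an unadjusted p under 0.05 by this test. With counts corrected library by library for GC content and length of the transcript, 491 genes were higher and 336 lower, and the share higher was 59.4%. All 237 higher and 70 of the 73 lower genes were again called in the same direction with that correction. Omitting untreated replicate 2 left 177 calls (153 higher), omitting interferon replicate 1 left 174 (160 higher) and omitting its partner, replicate 2, left 177 (154 higher). Lower calls were then 24, 14 and 23, and 42 without untreated replicate 1. The call held without each of the 8 libraries in turn for 144 higher and 10 lower genes. The groups do not overlap for any of the 310 called genes, and over all tested genes both interferon libraries lay above both untreated ones for 20.9% and below for 24.5%. Separate groups are thus shared by all called genes and add nothing to the call of a single gene. In bulk samples, fewer cells of a type and less RNA per cell cannot be told apart.

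**Figure D1:**
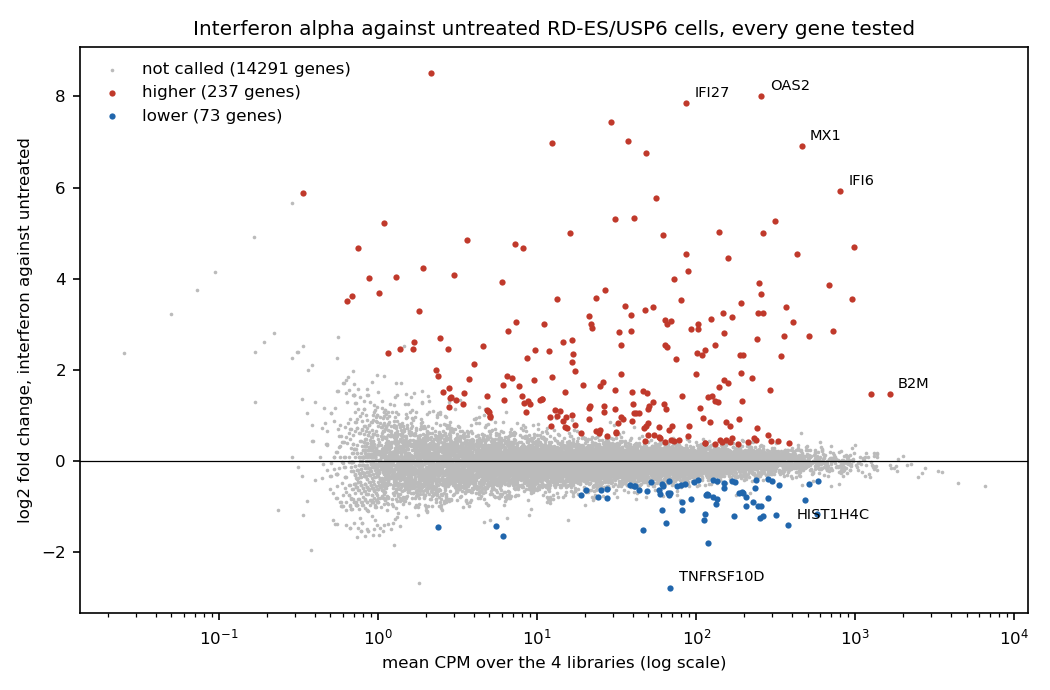
Each point is 1 of 14601 genes, with mean CPM over the 2 untreated and 2 interferon libraries on a log axis and log2 fold change on the other axis. The 237 higher genes (red) reach a log2 change of 8.01 for OAS2, while among the 73 lower genes (blue) TNFRSF10D alone lies below a log2 change of -2. The topmost point, CASP1, had 0 reads untreated, so its fitted change depends on the prior count.

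Taken over all called genes, changes were larger upward than downward. Of the higher genes 176 rose at least 2-fold, 103 at least 4-fold, 66 at least 8-fold, 32 at least 16-fold and 8 at least 64-fold, with a median log2 change of 1.68. Of the lower genes 17 fell at least 2-fold and 1 at least 4-fold, with a median of -0.71. The higher genes took 1.04% and 0.978% of reads without treatment and 4.01% and 3.95% under interferon. The lower genes went from 1.37% in each untreated library to 0.764% and 0.804%. Of 2673 genes at 100 CPM or more untreated 26 were higher, with a median log2 change of 0.53, and 44 were lower. Of 573 tested genes under 1 CPM untreated 28 were higher, with a median of 4.06, and 0 were lower. The size of the rise thus went with the untreated level, and a fall from under 1 CPM could hardly have been called. With interferon 89 of the higher genes stood above 100 CPM.

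**Figure D2:**
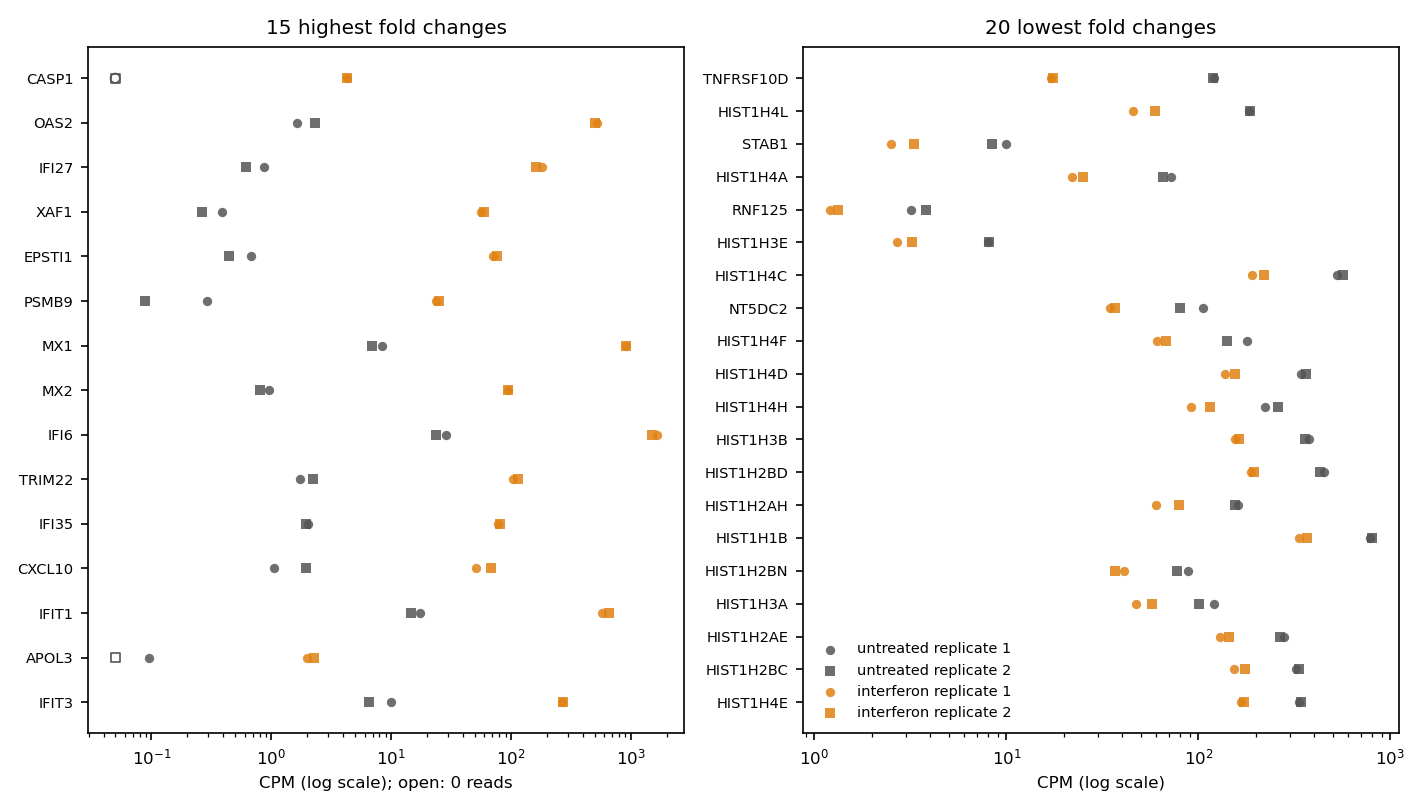
CPM in each of the 4 libraries (log axis, grey untreated, orange interferon, circle replicate 1, square replicate 2) for the 15 highest and 20 lowest fold changes. They were chosen among called genes of at least 1 CPM on average whose groups do not overlap. Open symbols are 0 reads, drawn at the left edge, and by that choice the groups stand apart in every row. OAS2 went from 1.64 and 2.31 CPM to 517 and 504 CPM and TNFRSF10D from 120 and 120 CPM to 17.1 and 17.6 CPM.

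Transcription factors of the pathway rose, while JAK1 and both receptor genes were not called. STAT2 went from 131 and 99.7 CPM untreated to 606 and 523 CPM with interferon. This is a log2 change of 2.31 ± 0.12 (SE) with an adjusted p of 3e-07, and both treated libraries lie far above both untreated ones. IRF9, its DNA-binding partner, went from 5.99 and 6.40 CPM to 71.7 and 58.3 CPM (3.40 ± 0.15, adjusted p 8e-08). Both genes rose with no overlap between groups, as did every higher gene. Per length, STAT2 stood at 35.4 RPKM untreated and at 173 RPKM with interferon. IRF7, which amplifies interferon production, rose from 6.57 and 3.20 CPM to 43.9 and 33.8 CPM (3.01 ± 0.32, adjusted p 0.00018). IRF1 (1.26 ± 0.21, adjusted p 0.0066) and IRF2 (0.68 ± 0.13, adjusted p 0.024) rose less, and both lost their call without untreated replicate 2 or interferon replicate 2 and IRF2 also without interferon replicate 1. In all, 6 of the 24 tested genes of JAK-STAT and IRF signalling were higher and none lower. The list median was 0.20 (0.17 to 0.24 with 1 library left out). JAK1 had 838 and 928 CPM against 915 and 1008 CPM, IFNAR1 49.4 and 62.2 against 48.9 and 58.2 CPM, and IFNAR2 14.1 and 18.0 against 16.6 and 15.9 CPM.

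Of 17 tested feedback inhibitors of cytokine signalling 3 were higher and none lower. USP18, which removes ISG15 and blocks IFNAR2 signalling, stood at 8.88 and 7.38 CPM untreated and 53 and 61.7 CPM with interferon (2.83 ± 0.15, adjusted p 3.9e-07). TRIM21, an antibody receptor and ubiquitin ligase of the cytosol, rose 7.25-fold (2.86 ± 0.13, adjusted p 1.1e-07). LGALS9, a secreted galectin, had 5 reads over both untreated libraries and 7.11 and 6.80 CPM with interferon (4.85 ± 0.44, adjusted p 3.9e-05). SOCS3, a classical inhibitor of Janus kinases, had 3.57 and 4.62 CPM against 3.91 and 2.36 CPM, with overlapping groups.

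Sensors of foreign nucleic acid rose in 11 of 25 tested members, none fell, and the list median was 0.43. DDX58, encoding the RNA sensor RIG-I, went from 32 and 30.4 CPM to 469 and 452 CPM (3.90 ± 0.12, adjusted p 3.7e-09). IFIH1, encoding the related sensor MDA5, went from 25 and 26.2 CPM to 203 and 239 CPM (3.12 ± 0.12, adjusted p 1.6e-08). The helicase genes DDX60 and DDX60L rose 11.1-fold and 12.7-fold. EIF2AK2, encoding the double-stranded RNA kinase PKR, rose from 63.2 and 69.8 CPM to 313 and 345 CPM (2.32 ± 0.11, adjusted p 1.1e-07). TLR3, the endosomal sensor of double-stranded RNA, rose from 5.89 and 5.16 CPM to 26.5 and 29.5 CPM (2.36 ± 0.18, adjusted p 1e-05). In each of these genes both interferon libraries lie above both untreated ones, as for every higher gene. PLSCR1, a membrane scramblase with antiviral activity, rose 9.44-fold.

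Of 52 tested antiviral effectors 42 were higher and none lower, with a median log2 change of 2.65. OAS2 makes the 2-5A messenger that sets off RNA decay, and it went from 1.64 and 2.31 CPM to 517 and 504 CPM (8.01 ± 0.14, or 258-fold, adjusted p 7.6e-11). Its neighbours OAS1 and OAS3 rose by 5.0 ± 0.12 and 3.86 ± 0.18 on the log2 scale. MX1, a dynamin-like GTPase that traps viral nucleoproteins, had 8.40 and 6.93 CPM untreated and 903 and 916 CPM with interferon (6.91 ± 0.12, or 120-fold, adjusted p 7.6e-11). Its relative MX2 went from 0.966 and 0.800 CPM to 94.8 and 95.1 CPM (6.75 ± 0.16, adjusted p 4.9e-10). For OAS2, MX1 and MX2 the replicates lie close together beside the gap between groups.

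IFI27 and IFI6 encode small mitochondrial and endoplasmic reticulum proteins. IFI27 had 9 and 7 reads untreated and 182 and 162 CPM with interferon (7.85 ± 0.18, or 231-fold, adjusted p 4.6e-10). IFI6 went from 28.9 and 23.6 CPM to 1649 and 1500 CPM (5.92 ± 0.12, or 60.6-fold, adjusted p 2.3e-10). Per length IFI6 reached 1915 RPKM, against 262 RPKM for MX1. EPSTI1, a gene first described in breast cancer stroma, rose from 0.676 and 0.444 CPM to 70.6 and 76.4 CPM (7.03 ± 0.22, adjusted p 3.7e-09). IFIT1 and IFIT3, which bind viral RNA ends as a complex, rose 38.4-fold and 32.8-fold. IFIT1 had 17.6 and 14.6 CPM untreated and 569 and 651 CPM with interferon. TRIM22, a ubiquitin ligase that limits viral transcription, rose 55.0-fold, and IFI35 40.1-fold. IFITM1, a membrane protein that blocks viral fusion, went from 40.2 and 31.7 CPM to 819 and 825 CPM (4.53 ± 0.16, adjusted p 1.2e-08). IFITM1, IFITM2 and IFITM3 are close copies, so the split of reads among them is uncertain. RSAD2, encoding viperin, rose by 4.96 ± 0.16 on the log2 scale.

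Among the 10 genes with the greatest gain in mean CPM were IFI44L, IFI6, B2M, OAS3, ADAR, PARP14, MX1, IFITM1 and RNF213. ADAR, the enzyme that edits adenosine in double-stranded RNA, was already at 674 and 666 CPM untreated and rose to 1831 and 1867 CPM (1.48 ± 0.09, adjusted p 7.7e-07). RNF213, a very large ubiquitin ligase, rose 6.67-fold, from 157 and 111 CPM to 957 and 812 CPM.

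ISG15 is a ubiquitin-like protein that is joined to newly made proteins, and nearly its whole pathway rose, 7 of 8 tested genes with a median log2 change of 2.99. ISG15 itself went from 16.6 and 11.6 CPM to 287 and 320 CPM (4.44 ± 0.35, adjusted p 1.2e-05). The activating enzyme gene UBA7 went from 8.69 and 6.67 CPM to 72.7 and 66.6 CPM (3.20 ± 0.18, adjusted p 6.6e-07). UBE2L6, the conjugating enzyme, went from 38.3 and 30.6 CPM to 313 and 293 CPM (3.15 ± 0.11, adjusted p 1.2e-08). HERC5, the ligase in human cells, rose by 1.63 ± 0.11, and its relative HERC6 by 4.55 ± 0.14, from 8.21 and 6.04 CPM to 160 and 170 CPM.

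Guanylate-binding proteins, GTPases that attack vacuoles of intracellular microbes, were higher in 5 of 8 tested GBP and IRG genes. GBP1 went from 24.3 and 19.9 CPM to 155 and 172 CPM (2.90 ± 0.12, adjusted p 3.8e-08), and GBP2, GBP3 and GBP4 rose 3.66-, 8.06- and 4.49-fold. The fifth, GVINP1, bears the symbol of a pseudogene and is an uncertain call, which also held without 2 of the 8 libraries only. Of 6 tested apolipoprotein L genes 4 rose. APOL1, whose product lyses trypanosomes, had 3 and 4 reads untreated and 6.21 and 5.10 CPM with interferon (4.09 ± 0.34, adjusted p 1.8e-05). APOL6 rose from 16.5 and 12.9 CPM to 105 and 128 CPM (3.0 ± 0.16, adjusted p 3.7e-07). APOL3 had 1 read in the untreated libraries together and was 46.2-fold higher by reads scaled to depth, with a 95% counting interval of 7.87 to 1870 that covers counting error only.

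In the PARP family of ADP-ribosyltransferases 7 of 17 tested genes were higher. In a fit with the replicate number as a block 5 were, and with the GC correction 8 were higher and 1 was lower. PARP9 and its partner DTX3L, which share a stretch of chromosome 3, rose 9.5-fold and 6.65-fold, and PARP14 beside them rose 7.20-fold, from 184 and 171 CPM to 1219 and 1307 CPM (2.85 ± 0.11, adjusted p 1.5e-08). PARP12, a virus inhibitor, rose 5.83-fold. PML nuclear bodies are protein assemblies that restrain viral genomes. Of 13 tested genes 4 were higher, the scaffold gene PML (7.73 and 6.49 against 27.7 and 27.4 CPM, 1.97 ± 0.20, adjusted p 0.00014), SP100 (3.08 ± 0.16, adjusted p 3.6e-07), SP110 (2.43 ± 0.09, adjusted p 1.9e-08) and SP140L (1.55 ± 0.15, adjusted p 7.6e-05). Of 47 tested symbols beginning TRIM, a set chosen after values were seen, 10 were higher and none was lower.

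Class I molecules present peptides to T cells. Of 12 tested class I chain genes 8 were higher and none lower, with a median of 1.81 (1.62 to 1.99 with 1 library left out). B2M, the light chain shared by all class I molecules, went from 870 and 885 CPM to 2444 and 2361 CPM (1.47 ± 0.10, adjusted p 3.4e-06). HLA-B went from 52.2 and 41.5 CPM to 472 and 405 CPM (3.24 ± 0.12, adjusted p 1.9e-08). HLA-C went from 26.9 and 18.9 CPM to 198 and 166 CPM (3.01 ± 0.16, adjusted p 2.8e-07). HLA-E, a ligand of natural killer cell receptors, rose 4.69-fold. HLA genes are near-identical in parts and vary between people, so how reads were split among them is uncertain. Per length, B2M stood at 930 RPKM and HLA-B at 30.3 RPKM untreated, and at 2548 and 284 RPKM with interferon.

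Of 16 genes for peptide supply and loading 10 were higher, with a median of 1.25. TAP1, one chain of the transporter that carries peptides into the endoplasmic reticulum, went from 14.8 and 10.9 CPM to 144 and 148 CPM (3.53 ± 0.13, adjusted p 1.2e-08). Its partner TAP2 rose by 1.44 ± 0.14. ERAP2, which trims peptides, rose from 43.6 and 34.4 CPM to 235 and 214 CPM (2.54 ± 0.13, adjusted p 3e-07). NLRC5, the transactivator of class I genes, rose from 2.80 and 1.42 CPM to 28.5 and 20.8 CPM (3.56 ± 0.28, adjusted p 1.3e-05).

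The immunoproteasome replaces the catalytic subunits of the standard proteasome. PSMB9 had 3 and 1 reads untreated and 23.6 and 25.3 CPM with interferon (6.97 ± 0.38, adjusted p 4.6e-07). PSMB8 went from 16.5 and 10.6 CPM to 110 and 118 CPM (3.09 ± 0.16, adjusted p 3.5e-07). The third, PSMB10, had 7.34 and 7.38 CPM against 9.32 and 10.4 CPM and was not called (0.43 ± 0.23, adjusted p 0.51). Of 31 constitutive proteasome genes edgeR called 0 and DESeq2 also called 0, with 1 at an unadjusted p under 0.05 and a median of 0.01 (-0.05 to 0.09 with 1 library left out). With the GC correction 1 was higher. The subunits that PSMB9 and PSMB8 replace, PSMB6 (104 and 121 against 96.3 and 108 CPM) and PSMB5 (161 and 170 against 155 and 160 CPM), lay close between groups.

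Class II antigen presentation gave 4 higher genes of 15 tested, and none of the 4 encodes a classical class II chain. CTSS, a protease of the class II pathway, went from 4.64 and 2.93 CPM to 12.6 and 10.7 CPM (1.64 ± 0.23, adjusted p 0.0017). IFI30, a lysosomal thiol reductase, rose by 1.79 ± 0.26 (adjusted p 0.0028), but not without untreated replicate 2, and RFX5, a transcription factor, by 0.41 ± 0.08 (adjusted p 0.021), a call lost without any 1 of the 4 libraries compared (log2 change 0.39 to 0.44). HLA-DOB, a non-classical chain beside TAP2, had 8 reads untreated and lost its call without any 1 of the 8 libraries (log2 change 1.89 to 2.73). The count of 4 fell to 2 or 1 when untreated replicate 1 or 2 was omitted and to 2 when either interferon sample was. The list median of 0.095 became 0.41 without untreated replicate 1 and -0.09 without untreated replicate 2. CD74, the class II invariant chain, stood at 0.773 and 1.16 CPM against 0.601 and 0.566 CPM. Of 6 tested symbols beginning BTN, the butyrophilins, a set chosen after values were seen, 3 were higher and 3 were not called. The higher ones, BTN3A1, BTN3A2 and BTN3A3, ligands of gamma delta T cells, rose by 1.14 ± 0.10, 1.26 ± 0.11 and 1.14 ± 0.13 on the log2 scale. Near-identical sequence makes their split uncertain.

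Among complement genes 3 of 15 were higher. SERPING1, the C1 inhibitor, went from 27.8 and 24.1 CPM to 73.3 and 71.9 CPM (1.5 ± 0.12, adjusted p 1.1e-05). C3, the central component, had 2.12 and 1.07 CPM against 4.21 and 3.96 CPM (1.38 ± 0.29, adjusted p 0.036), and its call was lost without untreated replicate 2 or any of the 4 interferon-treated libraries (log2 change 0.97 to 1.92).

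Of 12 tested chemokine genes 3 were higher and none lower. In a fit of the 4 samples alone 2 were higher, and CCL5 and CXCL9 did not pass its filter. Genes with so few untreated reads could hardly have been called lower. CXCL10, a ligand of CXCR3, went from 1.06 and 1.96 CPM to 51.2 and 68.7 CPM (5.30 ± 0.30, adjusted p 5e-07). CXCL11, another ligand of that receptor, had 4 reads untreated and 4.01 and 3.30 CPM with interferon (4.23 ± 0.50, adjusted p 0.00045). CCL5 was 13.6-fold higher by reads (95% counting interval 3.42 to 119, from 2 reads untreated), and its call (adjusted p 0.039) was lost without untreated replicate 2 or any of the 4 interferon-treated libraries (log2 change 2.67 to 6.77). CXCL9, the third ligand of CXCR3, had 1 read in each untreated library and 4 and 6 reads with interferon, a ratio by reads of 5.25 (interval 1.12 to 49.3), and was not called (adjusted p 0.24). IDO1, the enzyme that degrades tryptophan and restrains T cells, was 17.5-fold higher by reads (interval 5.65 to 87.7, from 3 reads untreated), and TNFSF10, encoding the death ligand TRAIL, went from 0.773 and 0.533 CPM to 4.31 and 4.15 CPM (2.70 ± 0.33, adjusted p 0.00067). These and CSF1, a macrophage growth factor (1.41 ± 0.31, adjusted p 0.044, lost without any 1 of the 6 libraries other than those with both treatments, log2 change 1.21 to 1.64), were the 3 higher genes of 21 cytokine and checkpoint genes. CD274, encoding the checkpoint ligand PD-L1, had 0 and 0.444 CPM against 0.601 and 0.566 CPM and was not called. CD68, a lysosomal glycoprotein used above as a leukocyte marker, rose 3.56-fold from 2.90 and 3.20 CPM, while PTPRC, the marker that defines leukocytes, stood at 1.35 and 0.889 CPM against 1.5 and 1.89 CPM.

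Of 28 tested genes of death receptors and caspases 3 were higher and 1 lower. XAF1, which opposes the caspase inhibitor XIAP, had 4 and 3 reads untreated and 56.0 and 59.9 CPM with interferon (7.44 ± 0.22, or 174-fold, adjusted p 3.6e-09). CASP1, the protease of inflammasomes, had 0 reads in both untreated libraries and 4.31 and 4.25 CPM with interferon, which is at least 30.8-fold higher when 3 reads are put in for the untreated group as a whole. CASP4, a sensor of bacterial lipopolysaccharide, went from 32.3 and 29.6 CPM to 71.6 and 64.6 CPM (1.15 ± 0.12, adjusted p 0.00011). PMAIP1, a killer protein of the BCL2 family better known as NOXA, was the 1 called gene of 15 in that family (0.52 ± 0.09, adjusted p 0.013), and its call was lost without any 1 of the 4 libraries compared (log2 change 0.50 to 0.56). NFKBIA, the inhibitor that NF-kB itself induces, was the 1 higher gene of 20 in its list (26.8 and 26.1 against 53.8 and 55.1 CPM, 1.06 ± 0.09, adjusted p 3.3e-05).

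TNFRSF10D, a decoy receptor that binds TRAIL without passing on a death signal, had the lowest log2 change of all called genes. It stood at 120 and 120 CPM untreated and at 17.1 and 17.6 CPM with interferon (fell by 2.78 ± 0.11, 6.85-fold lower, adjusted p 2e-08). The replicates agree closely and the groups are far apart. With the GC correction the log2 change was -2.80, and the call held without each library. Its ligand TNFSF10 rose, as given above. The death-signalling TRAIL receptors TNFRSF10A (17.1 and 14.3 against 16.9 and 13.2 CPM) and TNFRSF10B (194 and 170 against 223 and 195 CPM) were not called.

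A set of amino acid response genes, targets of the transcription factor ATF4, was higher in 11 of 33 tested members, with none lower and a median of 0.33. CHAC1, which breaks down glutathione, went from 1.35 and 1.33 CPM to 7.51 and 7.93 CPM (2.53 ± 0.27, adjusted p 0.00017). ASNS, asparagine synthetase, went from 54.2 and 50.1 CPM to 82.4 and 93.9 CPM (0.77 ± 0.10, adjusted p 0.00082). DDIT3, encoding the stress factor CHOP, went from 61.7 and 71.2 CPM to 116 and 109 CPM (0.77 ± 0.11, adjusted p 0.0016). ALDH1L2, a mitochondrial folate enzyme, rose 2.39-fold. Groups do not overlap in any of the 4, as for every called gene. Leaving out untreated replicate 1 or 2 gave 6 or 5 such genes, leaving out interferon replicate 1 or 2 gave 7 or 4, and there were 19 with the GC correction. Of 22 aminoacyl-tRNA synthetase genes CARS was higher (0.57 ± 0.11, adjusted p 0.017), and its call was lost without untreated replicate 1, interferon replicate 1 or interferon replicate 2 (log2 change 0.48 to 0.66). DESeq2 called 3 of the 22 and the GC correction 7. Of 22 genes for chaperones and folding stress of the endoplasmic reticulum edgeR and DESeq2 both called 0, with 4 at an unadjusted p under 0.05. The GC correction called 1 of them lower.

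Histone genes made up 31 of the 73 genes that fell. Replication-dependent histones are made in S phase from clustered genes whose mRNAs mostly lack a poly(A) tail, so a total RNA library can count them. Of 43 tested members of that list 24 were lower and none higher, with a median log2 change of -0.70, and their summed level was 10848 and 10645 CPM untreated and 6225 and 6720 CPM with interferon. HIST1H4C went from 529 and 570 CPM to 191 and 220 CPM (fell by 1.40 ± 0.10, adjusted p 5.3e-06). HIST1H2BD went from 452 and 429 CPM to 189 and 195 CPM (fell by 1.18 ± 0.10, adjusted p 1.7e-05). HIST1H3B went from 378 and 361 CPM to 154 and 163 CPM (fell by 1.20 ± 0.12, adjusted p 8.7e-05), and the linker histone gene HIST1H1B from 781 and 799 CPM to 333 and 370 CPM (fell by 1.15 ± 0.18, adjusted p 0.0042). HIST1H4L had the lowest log2 change of the histones (183 and 187 against 45.9 and 59.1 CPM, fell by 1.8 ± 0.16, adjusted p 4.3e-05). In all 5 genes both interferon libraries lie below both untreated ones, as for every lower gene. Histone genes of 1 type are near-identical, so the split of reads among copies is uncertain.

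With counts corrected for GC content and transcript length together the histone list median became -0.56, with 28 members lower and 1, HIST1H2BM, higher, and the change of HIST1H4C became -1.30. Fewer members were called lower when untreated replicate 2, interferon replicate 1 or interferon replicate 2 was omitted. The list median was then -0.725, -0.63 and -0.79. Without untreated replicate 2 a member was also called higher. HIST1H1B was not called without any of those 3 libraries. Over all 59 tested symbols beginning HIST, a set chosen after values were seen, 31 were lower and none higher. H1F0, the linker histone gene of resting cells, which does not depend on replication, went the other way, from 23.7 and 23.8 CPM to 76.1 and 60.9 CPM (1.54 ± 0.13, adjusted p 2e-05), and was also chosen after its value was seen.

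Of 47 tested DNA replication genes 8 were lower by edgeR and 13 by DESeq2, and none was higher. The list median was -0.41 and all 47 log2 changes were negative. An unadjusted p under 0.05 was reached by 41, against 1700 of all 14601 tested genes. RRM2, the regulated subunit of ribonucleotide reductase, went from 260 and 303 CPM to 172 and 200 CPM (fell by 0.59 ± 0.11, adjusted p 0.017). MCM2, of the replicative helicase, went from 640 and 568 CPM to 425 and 417 CPM (fell by 0.51 ± 0.11, adjusted p 0.044). The cyclin gene CCNE2 (fell by 0.71 ± 0.16, adjusted p 0.042) and CHAF1B of the chromatin assembly factor (fell by 0.51 ± 0.11, adjusted p 0.038) also passed. PCNA, the sliding clamp, had 323 and 377 CPM against 226 and 282 CPM and did not (-0.45 ± 0.12, adjusted p 0.12). With the GC correction 32 members were lower. Omitting untreated replicate 1 or 2 left 3 or 0 calls, omitting interferon replicate 1 or 2 left 0 or 3, and omitting either doxycycline sample left 2 or 5. Of 35 mitosis genes edgeR called 0, all 35 had a negative log2 change with a median of -0.20, and 12 had an unadjusted p under 0.05. That median was -0.33 without interferon replicate 1 and -0.08 without interferon replicate 2, and the list summed to 10134 and 9797 CPM untreated and 9372 and 7933 CPM with interferon. DESeq2 called 1 lower and the GC correction 7. MAD2L1, of the spindle checkpoint, came closest (210 and 218 against 170 and 161 CPM, -0.35 ± 0.08, adjusted p 0.063). Of 20 inhibitors of the cell cycle and p53 targets ZMAT3 was lower (fell by 0.64 ± 0.13, adjusted p 0.033) and its call was lost without any 1 of the 4 libraries compared or of the 2 with doxycycline alone (log2 change -0.70 to -0.57).

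**Figure D3:**
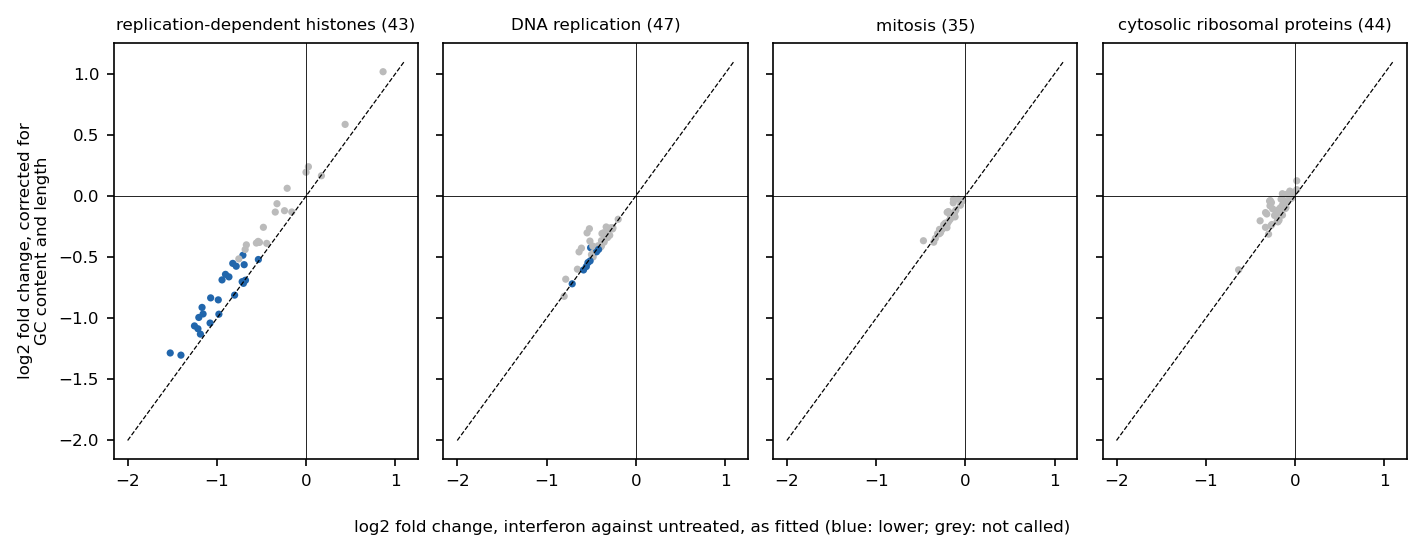
Log2 fold change of each tested member as fitted (horizontal) and after correction for GC content and transcript length (vertical) for 43 histone, 47 replication, 35 mitosis and 44 ribosomal protein genes, with the line of equal values dashed. The histones lie above the line, with a median of -0.70 as fitted and -0.56 corrected, while the replication genes stay near it (-0.41 and -0.40).

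Besides TNFRSF10D and histone genes, the 20 lowest changes among called genes of at least 1 CPM held 3 others. STAB1, a scavenger receptor, went from 9.95 and 8.45 CPM to 2.50 and 3.30 CPM (fell by 1.64 ± 0.27, adjusted p 0.0062), and lost its call without interferon replicate 1 or 2 (log2 change -1.87 to -1.44). RNF125, a ubiquitin ligase that marks RIG-I for degradation, had 3.19 and 3.82 CPM untreated and 1.20 and 1.32 CPM with interferon (fell by 1.45 ± 0.30, adjusted p 0.028), and lost its call without any 1 of the 4 libraries compared (log2 change -1.59 to -1.29). NT5DC2 went from 106 and 80 CPM to 34.8 and 36.6 CPM (fell by 1.36 ± 0.18, adjusted p 0.0012) and lost its call without interferon replicate 1 (log2 change over the omissions -1.53 to -1.17). The groups are apart in all 3 genes, as the rule that named them required.

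Several lists held no or few calls. For their counts at an unadjusted p under 0.05, the base is 1700 of all 14601 tested genes. Of 44 cytosolic ribosomal protein genes edgeR called 0 and DESeq2 1, with 42 negative log2 changes, a median of -0.17 and 10 at an unadjusted p under 0.05. With the GC correction 3 were lower and the median was -0.10. Nuclear OXPHOS subunits (32 tested, 1 at an unadjusted p under 0.05), glycolysis and hypoxia genes (25 tested, 0), immediate early genes (20 tested, 2) and neuronal genes (16 tested, 3) gave 0 calls by edgeR and 0 by DESeq2. The GC correction called 2 neuronal genes lower, 1 immediate early gene higher and no OXPHOS, glycolysis or hypoxia gene. Of 30 genes that EWSR1-FLI1, the fusion protein of Ewing sarcoma, is known to activate, ID2 was called (261 and 245 against 338 and 340 CPM, 0.44 ± 0.08, adjusted p 0.017), but not without any 1 of the 4 libraries compared (log2 change 0.41 to 0.47). Of 23 genes it represses edgeR called 0 and DESeq2 called 2, with 5 at an unadjusted p under 0.05. The GC correction called 4 activated genes higher, and of the repressed genes 1 higher and 2 lower. Of 30 matrix and adhesion genes the leukocyte adhesion molecules ICAM1 (6.57 and 3.56 against 13.9 and 11.0 CPM, 1.32 ± 0.26, adjusted p 0.021) and VCAM1 (3.48 and 3.56 against 8.71 and 8.87 CPM, 1.33 ± 0.26, adjusted p 0.022) were higher. Without untreated replicate 2, interferon replicate 1 or interferon replicate 2 neither was called, and without untreated replicate 1 VCAM1 was not.

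**Figure D4:**
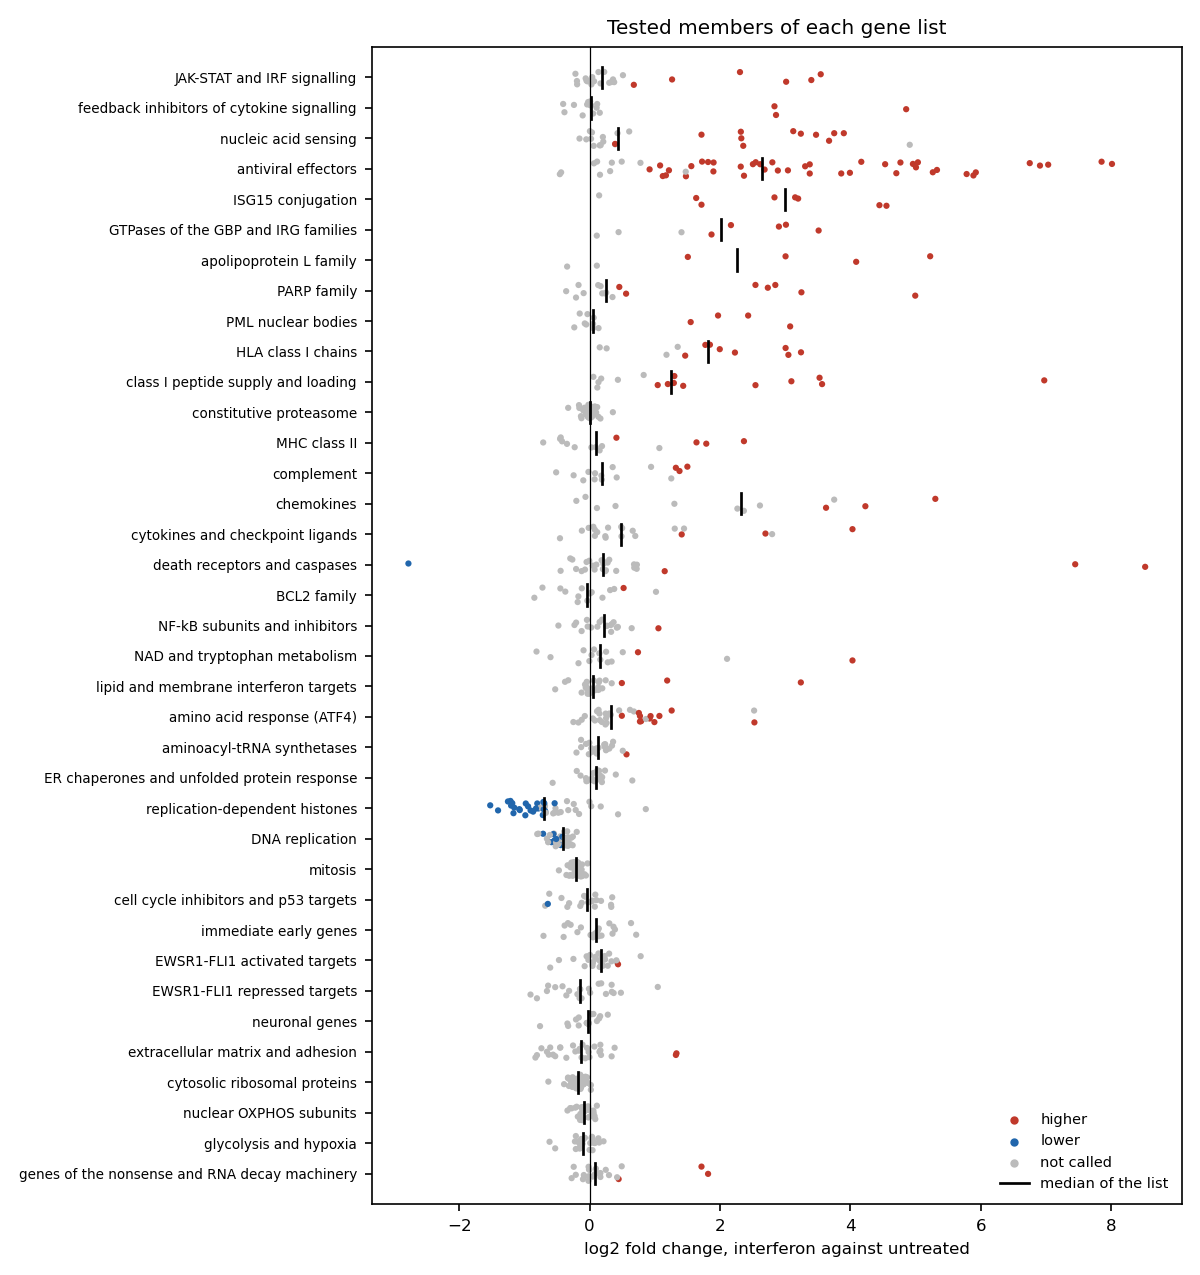
Log2 fold change of each tested member of 37 gene lists, with red higher, blue lower and grey not called, and a black bar at each list's median. Antiviral effectors (median 2.65) and the ISG15 pathway (2.99) stand to the right, the constitutive proteasome sits at 0.01, and histones (-0.70) and DNA replication (-0.41) stand to the left.

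Other lists held 2 or 3 calls each. Of 16 tested genes of NAD and tryptophan metabolism IDO1, given above, and the nucleotidase gene NT5C3 (43.5 and 44.8 against 66.6 and 79.6 CPM, 0.74 ± 0.14, adjusted p 0.017) were higher. Of 25 lipid and membrane targets of interferon PLSCR1, the lysosomal receptor gene SCARB2 (198 and 187 against 271 and 267 CPM, 0.49 ± 0.10, adjusted p 0.021) and TMEM62 (1.19 ± 0.26, adjusted p 0.042) were. Of 25 genes of RNA decay PNPT1, the mitochondrial polynucleotide phosphorylase (94.5 and 104 against 328 and 365 CPM, 1.82 ± 0.11, adjusted p 1.1e-06), TRIM25 (1.72 ± 0.10, adjusted p 1.1e-06) and the decapping gene DCP1A (0.45 ± 0.09, adjusted p 0.024) were. NT5C3 lost its call without either untreated sample or interferon replicate 2 (log2 change 0.60 to 0.88), SCARB2 (0.47 to 0.52) and DCP1A (0.42 to 0.47) without any 1 of the 4 libraries compared, and TMEM62 (1.15 to 1.24) without any 1 of the 8.

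Higher genes often lay side by side. Along the RefSeq gene order 82 of 236 placed higher genes (34.7%) had another higher gene as a tested neighbour, against 447 of all 14525 placed genes (3.08%). For lower genes it was 24 of 72 (33.3%) against 124 (0.854%). Of the 73 lower genes 31 were histone genes, which lie in clusters, and how many of the 24 were histones was not counted. The longest run held 6 genes on chromosome 6, HLA-DOB, TAP2, PSMB8, LOC100507463, TAP1 and PSMB9, followed by IFIT2, IFIT3, IFIT1 and IFIT5 on chromosome 10 and GBP3, GBP1, GBP2 and GBP4 on chromosome 1. Other runs of 3 were OAS1, OAS3 and OAS2 on chromosome 12, PARP9, DTX3L and PARP14 on chromosome 3, SP110, SP140L and SP100 on chromosome 2, and CASP4, CASP1 and CARD16 on chromosome 11. Some neighbours overlap or resemble each other, and counting by strand is not stated, so reads of such pairs cannot be told apart.

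The interferon effect was also compared with the effect in cells given doxycycline, which do not share libraries with this comparison. All 237 higher and all 73 lower genes had the same direction of change there, as did 74.3% of all tested genes. Among the 310 called genes 208 of the higher and 61 of the lower were also called there, where 2.42% of all tested genes were called higher and 0.904% lower. The difference of the 2 effects was called for 25 genes (0.171%), of which 24 were among the higher genes and had a smaller log2 change with doxycycline. The time on doxycycline alone is missing from the labels, and the exposure of those 2 groups may differ. USP6 stood at 569 and 572 CPM with doxycycline alone and at 399 and 373 CPM with both. Whether this bears on the differences was not tested. OAS2 stood at 40.6 and 41.8 CPM with doxycycline alone and at 663 and 623 CPM with both. Its log2 change was 4.01 on that background against 8.01 without, a difference of -4.0 (adjusted p 2.1e-06). MX1 stood at 83.9 and 82.1 CPM with doxycycline and 1046 and 980 CPM with both (difference -3.25, adjusted p 2.1e-06), and EPSTI1 at 10.1 and 11.9 CPM and 111 and 96.3 CPM (difference -3.75, adjusted p 0.00024). For IFI6 the difference was -2.42 (adjusted p 1.8e-05), for IFI44L -2.14 (adjusted p 9.3e-05), for IFIT1 -2.13 (adjusted p 0.00055), for IRF9 -1.99 (adjusted p 0.0014), for HERC6 -1.87 (adjusted p 0.0011) and for IFIT3 -1.72 (adjusted p 0.0074). TNFRSF10D, at 124 and 117 CPM with doxycycline and 18.4 and 20.9 CPM with both, gave a difference of 0.20 (adjusted p 1), and none of the 73 lower genes was called for a difference. The count of 25 became 15 or 11 when untreated replicate 1 or 2 was left out, 9 or 14 when interferon replicate 1 or 2 was, and 15 when the doxycycline sample numbered 1 was.

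**Figure D5:**
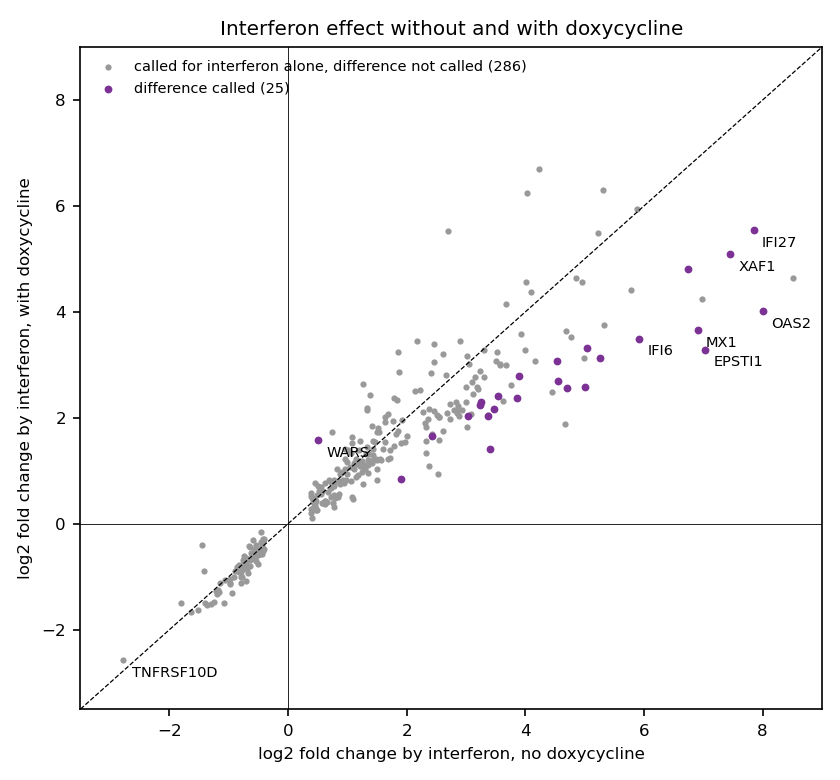
Log2 fold change by interferon without doxycycline (horizontal) and with it (vertical) for every gene called for interferon alone or for the difference, with the dashed line marking equal effects. The 25 genes whose difference was called (purple) lie below the line, such as OAS2 at 8.01 and 4.01, except WARS at 0.51 and 1.58, while TNFRSF10D lies near it.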

How the data were processed

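The deposited table gives raw read counts by the authors per RefSeq transcript, 34917 rows under 22257 gene symbols, with no normalisation. Per the labels' protocols a stranded kit for total RNA followed a trizol extraction. The submitters' processing notes name CASAVA 1.8.2, edgeR and hg19 without their roles. Which aligner and counter made the counts, and whether strand was used, is not given in the sources used here. Each gene took the transcript row with the highest total over 8 libraries.

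The main test was edgeR's quasi-likelihood F test (version 4.0.16, R 4.3.3) with a mean for every group, TMM factors between 0.977 and 1.026 and filterByExpr. It used all 8 libraries, with 4 residual degrees of freedom and a common coefficient of biological variation of 0.0972. A gene was called at a Benjamini-Hochberg adjusted p under 0.05 among 14601 genes. The SE of a log2 fold change was taken from its F statistic. Replicates differed by more than counting noise (chi-square per degree of freedom 6.68 untreated and 4.10 with interferon), with a median SD of log2 CPM of 0.118 and 0.098. Reads carry no molecular identifiers, so copies of 1 molecule cannot be removed. Every interval and floor reflects only the counting error of reads taken as independent, and may be too narrow. The script was tested on simulated counts.

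Named genes were, among called genes whose groups stood apart and whose mean reached 1 CPM, the 15 highest and 20 lowest log2 fold changes, the 10 largest gains and 10 largest losses in mean CPM, 4 members of smallest p from each list, and from these the 10 with the smallest interaction p. Pseudogenes and near-identical copies are marked as uncertain. Members named beyond that rule, such as IRF1, ISG15, OAS1, TLR3 and the genes given as not called, were chosen after their values were seen. Some genes that the rule names are not reported here. The genes and lists were chosen with earlier results of these data known. RefSeq symbols matched 22113 genes (99.4%), and 99.0% of tested genes had a GC content. Alternatives were other size factors, other filters, a fit of the 4 samples alone, a replicate block, sums over transcript rows, DESeq2 1.42.0, a loess correction (span 0.3) for GC content and transcript length, a minimum of 2-fold, and leaving out each library in turn, when a lone library was assumed to vary like the other groups.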

Additional observations from a re-analysis of the deposited data

Results flagged for a closer look

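Results were flagged where the effect of interferon differed between cells without and with doxycycline by the test of the difference itself (edgeR, adjusted p under 0.05), given here as the log2 change with doxycycline minus that without. The difference was -4.0 for OAS2, -3.75 for EPSTI1, -3.25 for MX1, -2.42 for IFI6, -2.36 for XAF1, -2.31 for IFI27, -2.14 for IFI44L and -2.13 for IFIT1. For IRF9, the DNA-binding part of the interferon complex, it was -1.99, for MX2 -1.94, for HERC6 -1.87, for IFIT3 -1.72, for OAS3 -1.49 and for IFITM1 -1.46. The RNA sensor genes DDX60 and DDX58 gave -1.30 and -1.11, PLSCR1 -1.01, PARP9 -0.95 and SP110 -0.77. The 1 positive difference was 1.07 for WARS, the tryptophanyl-tRNA synthetase gene, which was not called for interferon alone (log2 change 0.51 ± 0.12, adjusted p 0.068). With 2 libraries a group no single library could be examined as an outlier.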

How the results depend on the processing

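Counts higher and lower with interferon stayed within 1.5 times of 237 and 73 with RLE size factors, no filter, a stricter filter, only the groups compared, summed rows and DESeq2. With the GC content and length correction they were 491 and 336, and 53 genes were called for the difference of effects, against 43 by DESeq2 and 25 as fitted. A minimum of 2-fold left 176 higher and 17 lower. Leaving out 1 library at a time gave 153 to 246 higher, 14 to 90 lower and 9 to 20 differences. With the replicate number as a block 194 were higher, 50 lower and 17 differed. The labels do not say that the numbers pair samples, and the correlation of replicate deviations across genes was 0.337 for untreated and interferon samples. No direction of a called gene named by the rule reversed under any of these alternatives. Of the 186 genes named by the rule, called or not, 30 gained a call with the GC correction and 0 lost one, while 11 lost theirs with the block and 33 without interferon replicate 1. With 2 replicates a group small changes of genes near 1 CPM may not have been detectable.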

Other observations

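Outside every list described, 94 genes were higher and 39 lower with interferon, and those named here were chosen after their values were seen. LAP3, a cytosolic aminopeptidase, went from 76.8 and 82.9 CPM to 287 and 312 CPM (log2 change 1.92 ± 0.10, edgeR adjusted p 2.4e-07). The metallothionein gene MT2A, whose product binds zinc, went from 4.35 and 4.80 CPM to 27.4 and 29.9 CPM (2.66 ± 0.22, adjusted p 1.6e-05). GMPR, which recycles guanine nucleotides, rose by 2.86 ± 0.26 and the autophagy receptor gene OPTN by 1.68 ± 0.14. LAMP3, a lysosomal membrane protein of mature dendritic cells, rose from 4.54 and 4.18 CPM to 14.7 and 14.9 CPM (1.78 ± 0.16, adjusted p 4.4e-05). RYR2, the calcium release channel of heart muscle, rose from 80.9 and 93.3 CPM to 147 and 166 CPM (0.86 ± 0.11, adjusted p 0.0011). In all 6 genes the groups do not overlap, as for every called gene, and the call held without each of the 8 libraries.

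Among the lower genes outside the lists were E2F7, a repressor of E2F targets (74.6 and 72.5 against 47.2 and 52.1 CPM, -0.55 ± 0.10, adjusted p 0.011), HJURP, the chaperone of centromeric histone (-0.46 ± 0.09, adjusted p 0.019), and the tubulin gene TUBA1A (350 and 341 against 248 and 259 CPM, -0.43 ± 0.08, adjusted p 0.016). Each of these 3 lost its call without untreated replicate 1, untreated replicate 2 or interferon replicate 1, and the last 2 also without interferon replicate 2. TMSB15A, a thymosin, fell from 88.2 and 80.9 CPM to 54.3 and 45.0 CPM (-0.75 ± 0.12, adjusted p 0.0042), a call lost without interferon replicate 2.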
